A study of Mus musculus with 9 samples.

Results

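The Notch pathway was followed in mouse liver through 10 genes: the receptors Notch1, Notch2 and Notch4, the ligands Jag1, Dll1 and Dll4, the nuclear factor Rbpj, and the target or modulator genes Hes1, Hey1 and Dtx1. They were taken by name from a table of 27998 genes, and all 10 were present in it. A further 48 genes that make, modify, move or read out Notch served as the rest of the pathway. Levels were read from single-cell RNA-seq of 9 C57BL/6 mice, 1 library a mouse, in 3 groups. WT mice (n = 2) carried the ROSA26-rtTA-IRES-EGFP allele without the YAP transgene and received doxycycline food for 7 days. YAP3d mice (n = 4) and YAP7d mice (n = 3) carried the same allele together with tetYAP and received doxycycline for 3 and 7 days. The transgene encodes the active YAP S127A form, and by the study's methods rtTA was released in hepatocytes by Alb-Cre, so that the transgene was driven in hepatocytes. Whether WT mice also carried Alb-Cre is not given in the labels. All groups therefore shared the rtTA allele and doxycycline, whether or not rtTA was released in WT, and YAP3d differed from WT in the length of doxycycline as well as in the transgene. Cells came from enzymatically digested liver enriched for cells other than hepatocytes. Ages and sexes are not given here.

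Notch is a contact-dependent signal: a ligand of the Delta or Jagged family on a cell binds a Notch receptor on its neighbour, gamma-secretase then cuts the receptor, and the freed intracellular domain joins RBPJ on DNA to switch on genes such as Hes1 and Hey1. In the liver, endothelial Notch, with Dll4 as a main endothelial ligand, is known for its part in vessel identity, and Jag1 and Notch2 for bile duct formation. In immune cells Notch2 is known for marginal zone B cells of the spleen and for some dendritic cells. Each gene below is described first by the cells that hold it and then by its level in the 3 groups.

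Of 8562 cells 8527 had at least 200 detected genes and were used, and 13 classes were named from fixed marker genes, with 251 cells unnamed. Libraries held 281 to 2551 cells, 1288940 to 25056881 unique molecular identifiers (UMIs, each a counted transcript) and a median of 3231 to 11471 UMIs a cell. By the study's methods all 9 libraries, from the LSL mice, were made with the v2 reagents. Of 8515 distinct barcodes, 46 occurred in more than 1 library. Only 3 hepatocyte-like cells were found in WT, so the induced cells could not be compared. In hepatocyte-like cells Yap1 had 1 UMI in WT, 14 in YAP3d and 45 in YAP7d, or 69.03, 50.9 and 97.9 CPM (defined in the next paragraph) over the libraries of a group. In WT 3 UMIs would be 207 CPM, so the level there could not be told from that of the induced groups. Summed over all cells, Yap1 in YAP7d was called lower, with a log2 difference of -1.83 from WT (SE 0.487, edgeR adjusted p = 0.0293) and -1.50 from YAP3d (SE 0.432, edgeR adjusted p = 0.041). In these sums, which move with the number of cells of each type, edgeR called 2184 of 12071 genes against WT, 1318 of them lower. Against YAP3d it called 1988, 1187 of them lower. In endothelial-like cells alone Yap1 was not called, at -0.74 against WT (SE 0.378, edgeR adjusted p = 0.198) and -0.78 against YAP3d (SE 0.356, edgeR adjusted p = 0.152). Whether the transgene is counted under Yap1 was not analysed, so these values do not check the labels.

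UMIs were summed per library and class, and levels are given as CPM, the counts of a gene in each 1000000 UMIs of that sum. Before any comparison of groups, the classes in which each gene was found were set in order over the 6 libraries of WT and YAP3d, using libraries with at least 10 cells of a class. Mesenchymal-like cells, with 10 cells in YAP3d replicate 4 and fewer in the other libraries, were not ranked, and neither were unnamed cells. Notch1, the receptor of arteries and T-cell development, was highest in endothelial-like cells at 147 ± 22.1 CPM (SD, n = 6). Neutrophil-like cells followed at 93.99 ± 42 CPM (n = 3), a value resting on 20 UMIs, and the ranges of the 2 classes overlapped. Notch1 then fell through plasmacytoid-dendritic-cell-like (51.2 ± 7.93 CPM, n = 2) to T-cell-like cells (34.1 ± 5.60 CPM, n = 6), a step without overlap, and the 7 classes below T cells overlapped with their neighbours. Notch4, a receptor known for its expression in endothelium, stood at 38.7 ± 15.8 CPM in endothelial-like cells and at 9.31 CPM or less elsewhere, without overlap.

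Notch2 had the opposite distribution. It was at 3.88 ± 3.65 CPM in endothelial-like cells, next to last among 11 classes. Among the ranked classes its highest levels were in neutrophil-like (144 ± 56.0 CPM, n = 3), B-cell-like (104 ± 15.4 CPM, n = 6), monocyte-like (102 ± 35.4 CPM, n = 3), cholangiocyte-like (82.6 ± 33.2 CPM, n = 2) and dendritic-cell-like cells (80.0 ± 16.3 CPM, n = 6). Each of these 5 classes overlapped with the next. Outside the ranking, Notch2 was at 182 CPM from 16 UMIs in the 10 mesenchymal-like cells of YAP3d replicate 4.

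The Delta ligands were endothelial. Dll4 was at 75.5 ± 10.3 CPM in endothelial-like cells, above every other class without overlap, and Dll1 at 30 ± 15.6 CPM, again without overlap. The next class for Dll4, plasmacytoid-dendritic-cell-like cells, had 23.6 ± 20.4 CPM from 9 UMIs. Jag1 differed, with its highest level in cholangiocyte-like cells (73.6 ± 8.47 CPM, n = 2, 17 UMIs), the cells of the bile duct. It had 7.64 ± 4.65 CPM in endothelial-like cells, which nevertheless held most of its UMIs.

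Among the ranked classes Rbpj, the DNA-binding partner of the Notch intracellular domain, was highest in dendritic-cell-like cells at 163 ± 58.4 CPM. It stood above T-cell-like cells (57.4 ± 22.8 CPM) without overlap. From T-cell-like cells downwards every ranked class overlapped with its neighbour, endothelial-like cells (33.8 ± 9.35 CPM) among them. Outside the ranking, Rbpj was at 91.2 CPM from 8 UMIs in the 10 mesenchymal-like cells of YAP3d replicate 4. In unnamed cells it was at 291 and 60.8 CPM in WT and 195, 152, 84.8 and 49.7 CPM in YAP3d. Hes1, a transcriptional repressor and the best known Notch target, was at 327 ± 50.6 CPM in cholangiocyte-like cells (n = 2) and 290 ± 40.8 CPM in endothelial-like cells, which overlapped, and at 190 ± 99.8 CPM in macrophage-like and 177 ± 24.8 CPM in monocyte-like cells. Among the ranked classes Dtx1, a ubiquitin ligase that modulates Notch, was highest in T-cell-like cells at 86.5 ± 19.1 CPM. B-cell-like cells followed at 21.6 ± 10.1 CPM, without overlap. In unnamed cells Dtx1 was at 91.8 and 30.4 CPM in WT and 142, 41.5, 254 and 54.9 CPM in YAP3d. Most unnamed cells lay in a cluster of 229 cells with 8 of 9 T-cell markers raised. Hey1, a repressor related to Hes1, was near the detection limit in every class, with 15 UMIs in the endothelial-like cells of 6 libraries.

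**Figure D1:**
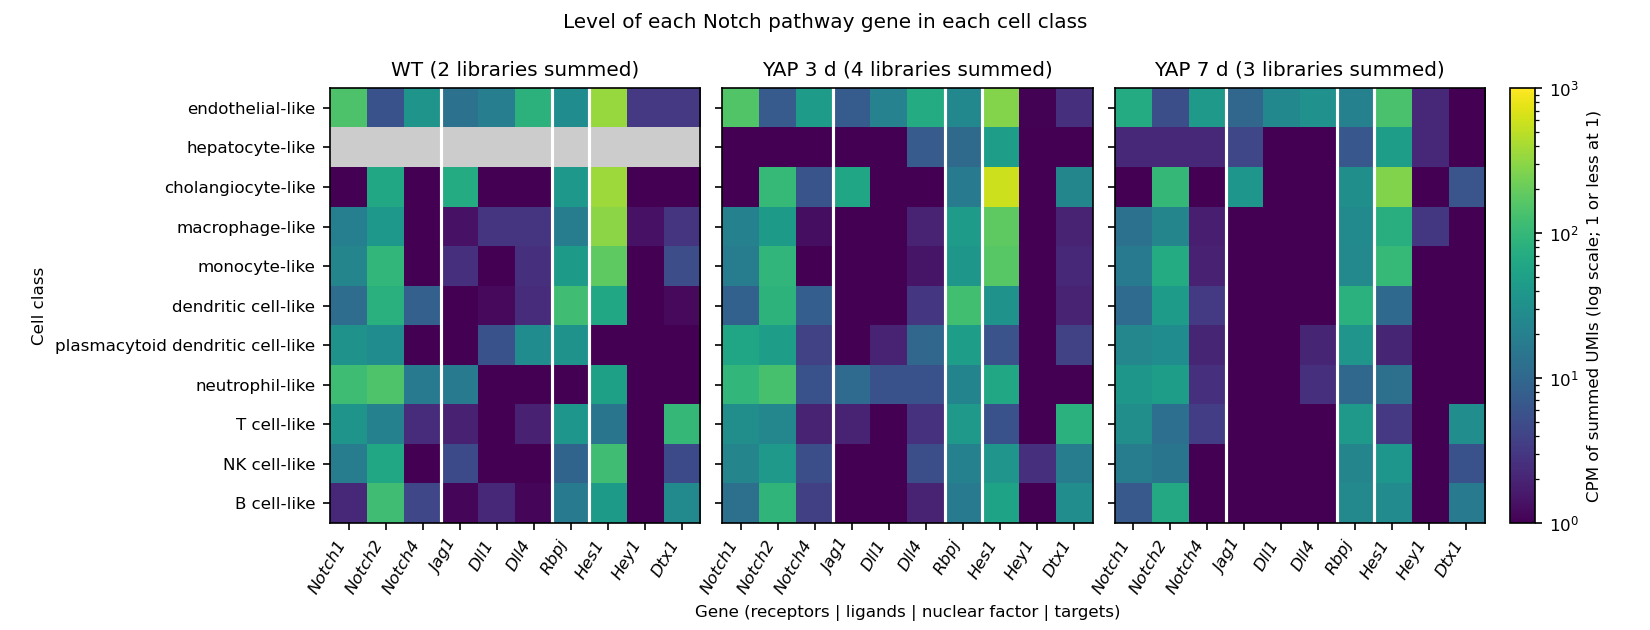
Levels of the 10 genes (columns, by role) in 11 cell classes (rows) for WT, YAP3d and YAP7d; colour gives CPM of the UMIs summed over the libraries of a group, on a log scale with values of 1 or less drawn at 1, and grey marks classes with fewer than 10 cells. Dll4, Dll1 and Notch4 stand out in the endothelial-like row, Dtx1 in the T-cell-like row and Rbpj in the dendritic-cell-like row.

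The same distribution can be read as shares of all UMIs of a gene. In WT, endothelial-like cells held 264 of 280 Dll4 UMIs (94.3%), 61 of 69 for Dll1 (88.4%), 112 of 130 for Notch4 (86.2%) and 457 of 598 for Notch1 (76.4%). For Hes1 they held 1086 of 1602 (67.8%) and for Jag1 43 of 70 (61.4%), with 9 of the rest in the few cholangiocyte-like cells. T-cell-like cells held 211 of 269 Dtx1 UMIs (78.4%). Rbpj and Notch2 were spread out: the largest share of Rbpj was 26.8%, in dendritic-cell-like cells, and that of Notch2 28.4%, in B-cell-like cells. In YAP7d the endothelial-like share of Dll4 was 74.6%, that of Notch1 15.1% and that of Hes1 7.64%, while macrophage-like cells held 51.4% of the Hes1 UMIs and monocyte-like cells 42.4% of those of Notch2. These shares move with the number of cells: endothelial-like cells made up 53.0 and 35.5% of the cells in WT, 26.7, 11.5, 38.4 and 30.2% in YAP3d, and 4.01, 4.99 and 3.49% in YAP7d.

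Notch1, Dll4 and the Notch target Nrarp differed between groups below in endothelial-like cells, while the transgene was driven in hepatocytes. The sequences around the starts of these genes are shown for the letters of the 2 factors nearest to the study's question. RBPJ, through which Notch acts, prefers TGGGAA, which reads TTCCCA on the other strand. The TEAD factors, through which YAP acts, prefer GGAATG, which reads CATTCC on the other strand. Matches on both strands were counted, and the motifs can overlap, as both hold GGAA. Windows of 300 bases, 250 before and 50 after the start, come from RefSeq (GRCm38.p6), read 5′ to 3′ on the strand of the gene, with matches to the TEAD letters in capitals.

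Notch1, chr2:26503773-26504072, minus strand: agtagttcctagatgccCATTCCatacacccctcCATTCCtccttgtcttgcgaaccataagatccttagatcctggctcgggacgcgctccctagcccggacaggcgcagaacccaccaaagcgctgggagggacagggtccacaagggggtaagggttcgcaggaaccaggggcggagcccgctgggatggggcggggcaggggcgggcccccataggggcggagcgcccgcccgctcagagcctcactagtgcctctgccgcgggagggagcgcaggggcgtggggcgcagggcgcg

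Dll4, chr2:119325534-119325833, plus strand: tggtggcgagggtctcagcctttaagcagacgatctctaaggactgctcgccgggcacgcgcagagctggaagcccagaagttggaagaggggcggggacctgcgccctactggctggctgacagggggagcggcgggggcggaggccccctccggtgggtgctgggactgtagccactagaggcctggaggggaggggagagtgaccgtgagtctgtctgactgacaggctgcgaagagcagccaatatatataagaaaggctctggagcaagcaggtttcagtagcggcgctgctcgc

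Nrarp, chr2:25180508-25180807, plus strand: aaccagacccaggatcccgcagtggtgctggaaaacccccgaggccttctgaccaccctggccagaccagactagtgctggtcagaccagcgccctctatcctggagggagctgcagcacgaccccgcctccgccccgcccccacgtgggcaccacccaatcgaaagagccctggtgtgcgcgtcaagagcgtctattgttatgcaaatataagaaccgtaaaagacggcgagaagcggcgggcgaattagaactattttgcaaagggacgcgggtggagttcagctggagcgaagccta

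The Notch1 window held CATTCC at 2 places, 233 and 216 bases before the start. The Dll4 and Nrarp windows held neither motif. Of the 10 genes, 8 had an entry, and Hes1 and Hey1 had none. These 8 genes had 10 windows. Of the 8 genes, 3 (Notch1, Notch4 and Rbpj) held the TEAD letters and 1 (Rbpj) the RBPJ letters. Over all 32851 windows, 14.7% held the TEAD letters and 25.6% the RBPJ letters, so a match is common and describes letters only.

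The endothelial comparison asked whether Notch genes of the vessel lining changed when YAP was induced in neighbouring hepatocytes. After 7 days, Notch1, Dll4 and Hes1 were lower in endothelial-like cells than in WT, by 2.06-fold, 2.24-fold and 2.28-fold, and Rbpj, Dll1 and Notch4 did not pass the test. After 3 days no gene of the 10 passed. Endothelial-like cells numbered 276 and 502 in WT, 75, 51, 162 and 771 in YAP3d, and 24, 23 and 64 in YAP7d, and their summed UMIs ranged from 216707 to 3706047. All 3 groups were fitted together with edgeR's quasi-likelihood test over the 7467 genes that passed a filter on low counts, and genes with a Benjamini-Hochberg adjusted p below 0.05 were called. Of the 10 genes, 6 passed the filter. Between YAP7d and WT 3 of these 6 were called, all lower, against 18.4% of all genes tested (8.72% lower and 9.71% higher).

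Notch1 was at 179 and 132 CPM in the WT libraries, at 128, 125, 165 and 156 CPM in YAP3d, and at 90.3, 63.1 and 68.0 CPM in YAP7d. Every YAP7d library lay below every library of the other groups, and WT and YAP3d overlapped. Groups lay apart in either direction for 43.8% of the genes tested between YAP7d and WT (24.2% with YAP7d lower) and for 25.9% between YAP7d and YAP3d (14.8% lower). On the log2 scale the difference was -1.04 between YAP7d and WT (SE 0.237, edgeR adjusted p = 0.00645) and -0.95 between YAP7d and YAP3d (SE 0.218, edgeR adjusted p = 0.00721). Without WT replicate 1 the first became -0.80 (edgeR adjusted p = 0.0867), and without YAP7d replicate 3 the second became -0.89 (edgeR adjusted p = 0.0507). Between YAP3d and WT it was -0.09 (SE 0.203), with an interval from -0.49 to 0.31.

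Notch4 did not follow Notch1. Its levels were 21.3 and 40.6 CPM in WT, 20.8, 41.5, 62.7 and 45.3 CPM in YAP3d, and 49.7, 18.0 and 46.8 CPM in YAP7d, and the groups overlapped throughout. The log2 fold change between YAP7d and WT was 0.37 (SE 0.406, edgeR adjusted p = 0.578). Notch2 was too low in this class to be tested, with 18, 35 and 7 UMIs in WT, YAP3d and YAP7d.

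Among the ligands, Dll4, the Delta ligand of vessels, was lower after 7 days. It was at 70.9 and 88.2 CPM in WT, at 72.9, 87.7, 62.7 and 70.4 CPM in YAP3d, and at 54.2, 31.6 and 27.9 CPM in YAP7d, from 12, 7 and 25 UMIs in the last. YAP7d did not overlap with either group. In the fit Dll4 differed by -1.17 on the log2 scale against WT (SE 0.278, edgeR adjusted p = 0.00854) and -0.98 against YAP3d (SE 0.264, edgeR adjusted p = 0.018), the second with an adjusted p of 0.0579 in DESeq2. Of the 3 called genes Dll4 lost its call in the most alternatives. Against WT the call was lost without WT replicate 2 (-0.97, edgeR adjusted p = 0.0902) or without YAP7d replicate 3 (-0.88, edgeR adjusted p = 0.0981). Against YAP3d it was lost without YAP7d replicate 2 (-0.88, edgeR adjusted p = 0.0627) or replicate 3 (-0.69, edgeR adjusted p = 0.188). In YAP7d replicate 3 the markers of neutrophils summed to 719 CPM in these cells and those of monocytes to 518 CPM, the highest of the 9 libraries in both. Their part in the result was not tested, apart from the values without this library.

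Dll1, the Delta ligand for marginal zone B cells, had 17.7 and 19.9 CPM in WT, 41.6, 55.4, 28.7 and 16.7 CPM in YAP3d, and 9.03, 54.1 and 22.3 CPM in YAP7d. The YAP7d libraries spanned nearly the whole range of the other groups. The log2 fold change between YAP7d and WT was 0.52 (SE 0.524, edgeR adjusted p = 0.538). Jag1 was not tested here, with 43, 36 and 13 UMIs in the 3 groups and 1.79 to 18.0 CPM over the 9 libraries.

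Rbpj was at 41.4 and 24.6 CPM in WT, at 34.7, 46.1, 34.0 and 21.9 CPM in YAP3d, and at 36.1, 49.6 and 10.03 CPM in YAP7d. The groups overlapped, with the highest and the lowest of the 9 values both in YAP7d. The log2 fold change between YAP7d and WT was -0.32 (SE 0.503, edgeR adjusted p = 0.71), with an interval from -1.31 to 0.66.

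Hes1, the target, gave the firmest difference. Its levels were 318 and 353 CPM in WT, 281, 235, 269 and 285 CPM in YAP3d, and 149, 167 and 125 CPM in YAP7d. The 3 groups did not overlap, in the order WT, YAP3d, YAP7d. The fitted difference on the log2 scale was -1.19 between YAP7d and WT (SE 0.185, edgeR adjusted p = 0.000385) and -0.86 between YAP7d and YAP3d (SE 0.168, edgeR adjusted p = 0.00259). In 21 alternatives, described at the end, the first lay between -1.27 and -1.004 and the second between -0.93 and -0.73, and each stayed called, the second with a highest adjusted p of 0.04997. The step from WT to YAP3d was -0.34 (SE 0.164, edgeR adjusted p = 1). Hes1 was 1 of 6 tested genes of the 10 without overlap there, against 8.84% of all genes tested (4.02% with YAP3d lower). Hey1 and Dtx1 were not tested in this class, with 10, 5 and 3 UMIs for Hey1 and 10, 12 and 1 for Dtx1 in WT, YAP3d and YAP7d.

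**Figure D2:**
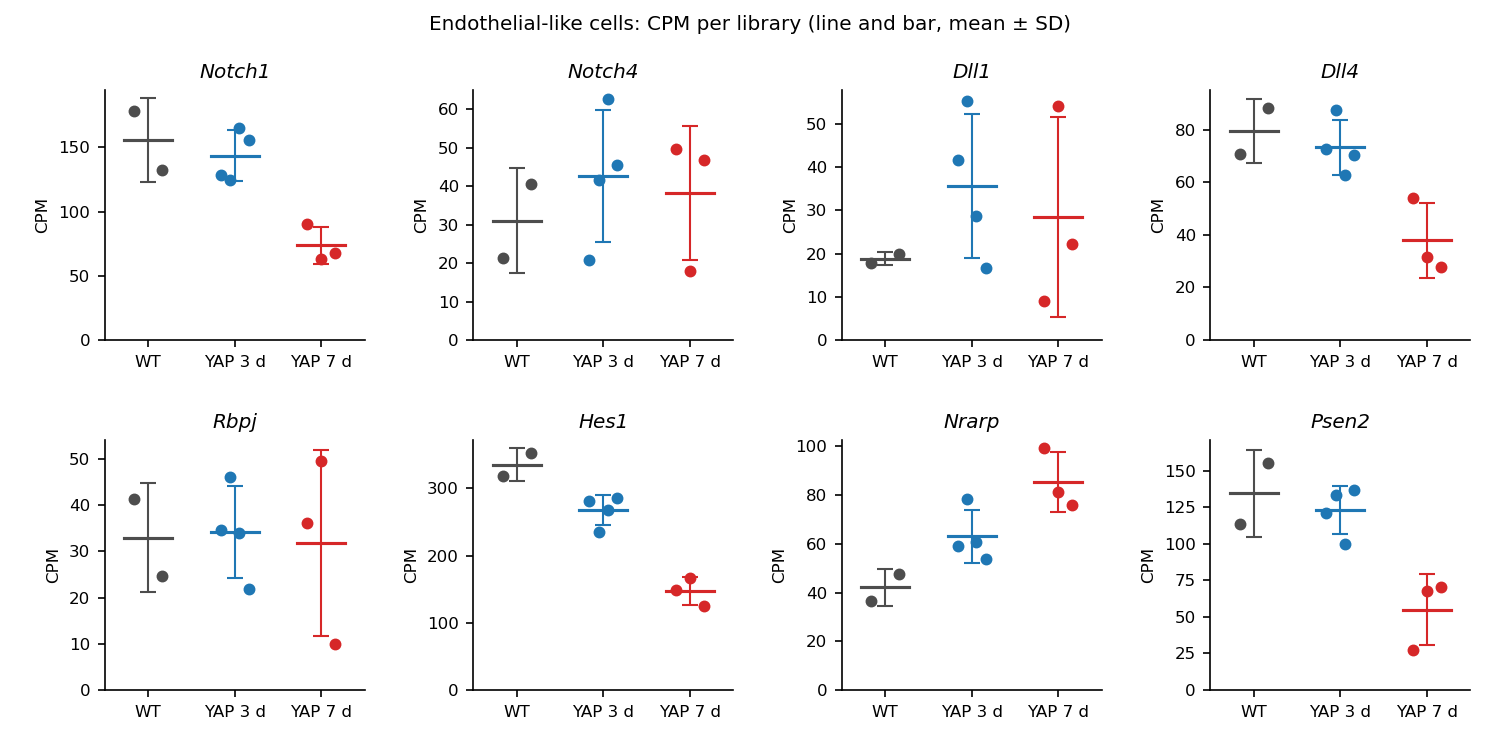
CPM in endothelial-like cells for 8 genes, 1 point a library, with the mean (line) and SD (bar) of WT (n = 2), YAP3d (n = 4) and YAP7d (n = 3). The YAP7d points of Notch1, Dll4, Hes1 and Psen2 lie below all others, those of Nrarp lie above WT, and those of Notch4, Dll1 and Rbpj lie among the other groups.

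Between YAP7d and YAP3d the same count was reached: Notch1, Dll4 and Hes1, 3 of 6, were lower, against 17.1% of all genes tested (8.16% lower and 8.96% higher), and without YAP7d replicate 3 only Hes1 was left. This comparison shares the YAP7d libraries with the first, so it is no separate evidence. Between YAP3d and WT edgeR called 0 of 6 and 0% of all genes, with 0 of 6 at an unadjusted p below 0.05 (144 of all genes) and 0 in DESeq2. The median log2 fold change of the 6 genes was -0.68 between YAP7d and WT, beside -0.04 over all genes tested, and -0.09 between YAP3d and WT, beside 0.01.

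Of the 48 other pathway genes 27 could be tested in endothelial-like cells. Between YAP7d and WT 4 of 27 were called, 2 higher and 2 lower, against 18.4% of all genes (9.71% higher and 8.72% lower), which is no result about the list. The median log2 fold change of the 27 was -0.12. The 4 genes are given for their place in the pathway. Nrarp, a direct Notch target that feeds back on the pathway, was higher where Hes1 was lower. It was at 36.7 and 47.5 CPM in WT, at 59.0, 78.4, 60.9 and 53.7 CPM in YAP3d, and at 99.4, 81.2 and 75.8 CPM in YAP7d. Both induced groups lay above WT without overlap, as did 19.7% of genes for YAP7d and 4.82% for YAP3d. The log2 fold change between YAP7d and WT was 0.997 (SE 0.244, edgeR adjusted p = 0.0102), and 0.87 without WT replicate 1 (edgeR adjusted p = 0.0799). The call was also lost with only cycling cells, those with at least 3 UMIs of cell-cycle genes (1.298, edgeR adjusted p = 0.0677), and with only the others (0.88, edgeR adjusted p = 0.356). Between YAP3d and WT it was 0.47 (SE 0.226, edgeR adjusted p = 1).

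Psen2, a catalytic subunit of gamma-secretase, was at 114 and 156 CPM in WT, at 121, 134, 100 and 137 CPM in YAP3d, and at 27.1, 67.6 and 70.2 CPM in YAP7d. YAP7d lay below both groups without overlap. Psen2 was also high in hepatocyte-like cells, at 483, 535 and 154 CPM over the libraries of WT, YAP3d and YAP7d, from 7, 147 and 71 UMIs, which was not tested. In endothelial-like cells the 12 hepatocyte markers summed to 178 to 288 CPM in WT, 326 to 365 CPM in YAP3d and 145 to 173 CPM in YAP7d, with none at 0. Against WT edgeR called 651 of all 7467 genes lower, and 1 of the 9 tested markers. Against YAP3d it called 609 of all genes lower, and 3 of the 9 markers. Their part in the Psen2 values was not tested, apart from the values without 1 endothelial-like cluster, that of least RNA, whose first genes include the hepatocyte genes Mup3, Apoa1 and Serpina1c (-1.17 against WT and -1.07 against YAP3d). Psen2 differed by -1.15 on the log2 scale from WT (SE 0.290, edgeR adjusted p = 0.012) and -0.995 against YAP3d (SE 0.269, edgeR adjusted p = 0.0187). The call against WT was lost without WT replicate 2 (-0.88, edgeR adjusted p = 0.129) and with only non-cycling cells (-1.002, edgeR adjusted p = 0.209). That against YAP3d was lost without YAP3d replicate 4 (-0.86, edgeR adjusted p = 0.0596) or YAP7d replicate 1 (-0.71, edgeR adjusted p = 0.0685), and with only cycling (-0.91, edgeR adjusted p = 0.0711) or only non-cycling cells (-0.89, edgeR adjusted p = 0.273).

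Mfng, a glycosyltransferase that modifies Notch, had 23.6 and 40.2 CPM in WT and 31.6, 126 and 66.9 CPM in YAP7d, which overlapped. The call of Mfng against WT, with a difference of 1.17 (SE 0.376) and an edgeR adjusted p of 0.0411, was lost in 9 of 21 alternatives, among them without WT replicate 1 (0.93), YAP3d replicate 3 (1.17), YAP7d replicate 2 (0.85) or YAP7d replicate 3 (1.27). Dtx3l, a relative of Dtx1, had 23.6 and 45.8 CPM in WT and 9.03, 9.02 and 14.5 CPM in YAP7d, without overlap. Its difference was -1.49 (SE 0.410) with an edgeR adjusted p of 0.0194, and the call was lost in DESeq2 (adjusted p = 0.0948) and without WT replicate 2 (-0.87), YAP7d replicate 1 (-1.34) or YAP7d replicate 2 (-1.33). Against YAP3d only Psen2 of the 27 was called, and between YAP3d and WT 0 were called, with 0 at an unadjusted p below 0.05 and 0 in DESeq2.

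**Figure D3:**
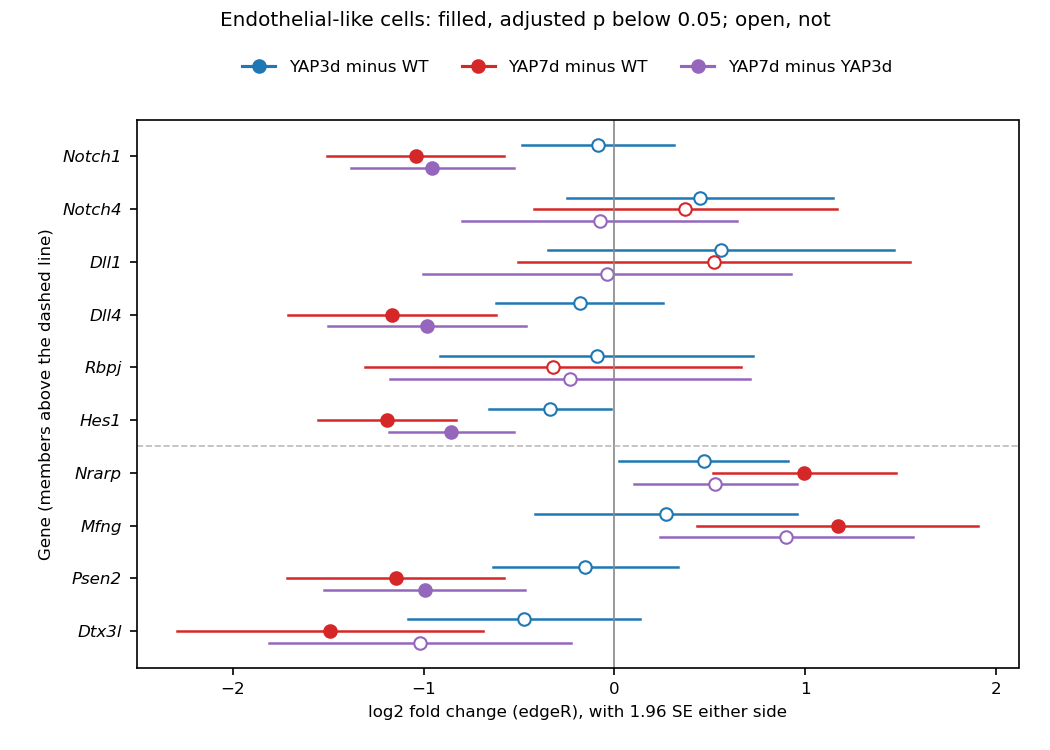
Log2 fold changes from edgeR in endothelial-like cells (x axis, with bars for the interval around each) for the 6 tested genes of the 10 and, under the dashed line, 4 other pathway genes, in 3 comparisons; filled points have an adjusted p below 0.05. Hes1 at -1.19, Dll4 at -1.17 and Notch1 at -1.04 are filled for YAP7d minus WT, and Nrarp at 0.997 lies on the other side of 0.

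The cells behind these values differed in kind as well as in group. In YAP7d 92 of 111 endothelial-like cells (82.9%) lay in a cluster that held 0 of 778 such cells in WT, which allows a share of up to 0.386%, and 4 of 1059 in YAP3d. This cluster had all 12 endothelial markers raised and was led by Fabp4, Pcdh17, Mest and Sparc. The other groups lay mainly in a periportal-like and a pericentral-like cluster. The periportal-like cluster had 4 of its 10 markers raised, with 1 marker of another list among its first 10 genes. The pericentral-like cluster had 7 of its 10 markers raised, with 0 of another list. Cells with at least 3 UMIs of 20 cell-cycle genes numbered 77 of 778 in WT, 134 of 1059 in YAP3d and 89 of 111 in YAP7d, at median depths of 3947, 4355 and 11567 UMIs a cell, so the shares are not at matched depth. Of 19 cycle genes tested 18 were higher in YAP7d than in WT, and of 12 sinusoidal genes 11 were lower. For these lists and those of the next paragraph, the values over all 7467 genes tested serve as background. Between YAP7d and WT edgeR called 725 of them higher and 651 lower, and 3904 had a log2 fold change below 0.

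Endothelial markers and immediate early genes were also lower in sum in YAP7d than in both other groups, and their part in the Notch values was not tested. The 12 endothelial markers summed to 18096 to 20283 CPM in WT, 16614 to 18909 CPM in YAP3d and 8685 to 9122 CPM in YAP7d, with 9 of 12 lower in YAP7d than in WT. The 12 immediate early genes, which respond to tissue dissociation, summed to 8008 to 8718, 5519 to 8579 and 2511 to 3301 CPM in the same order, with 9 lower. The marker lists of other cell types named next overlapped between the 3 groups. Macrophage markers gave 407 to 605, 281 to 988 and 429 to 801 CPM, with no marker of the list at 0. Markers of neutrophils, with 1 of 12 at 0, gave 57.9 to 128, 24.3 to 417 and 22.6 to 719 CPM, and those of monocytes 46.1 to 195, 55.5 to 218 and 90.2 to 518 CPM.

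When only the cells with at least 3 cycle UMIs were compared, Hes1 stayed called against WT (-1.004, edgeR adjusted p = 0.0183) while Notch1 (-0.52, edgeR adjusted p = 0.43) and Dll4 (-0.95, edgeR adjusted p = 0.157) did not. With only the cells below that number, which left 7, 6 and 9 cells in the YAP7d libraries, Hes1 was again called (-1.27, edgeR adjusted p = 0.00915), as was Notch1 with -1.36, and Dll4 was not (-0.93, edgeR adjusted p = 0.317).

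Endothelial zones offered a second view of the genes, within libraries and without YAP7d, which had 5 cells each in the periportal-like and pericentral-like clusters. The clusters were built without the pathway genes. Values are given as a description over the 6 libraries of WT and YAP3d. Notch4 was higher in the periportal-like cluster in 6 of 6 libraries, with means of 59.3 ± 20.0 and 29.96 ± 19.3 CPM. Dll4 was higher there in 5 of 6 libraries (98.6 ± 15.4 against 61.4 ± 13.1 CPM), as was Hes1 (359 ± 105 against 257 ± 29.8 CPM). Notch1 was also higher in 5 of 6, by less (175 ± 30.8 against 151 ± 24.6 CPM).

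Jag1 and Hey1 were periportal in counts, with 53 against 25 UMIs for Jag1 and 13 against 2 for Hey1. Dll1 leaned the other way, higher in the pericentral-like cluster in 4 of 6 libraries (38.1 ± 27.9 against 18.6 ± 16.1 CPM), and so did Rbpj in 5 of 6 (41.5 ± 16.1 against 29.2 ± 12.1 CPM). Against these, the cluster of YAP7d held Notch1 at 74.9 ± 15.4 CPM, Dll4 at 35.0 ± 7.33 CPM and Hes1 at 155 ± 24.7 CPM (n = 3), each mean below those of both zones. Its Notch4 was at 41.9 ± 18.0 CPM, between the means of the zones, and its Nrarp at 85.0 ± 11.1 CPM, above both (56.6 ± 22.6 and 46.3 ± 20.0 CPM).

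**Figure D4:**
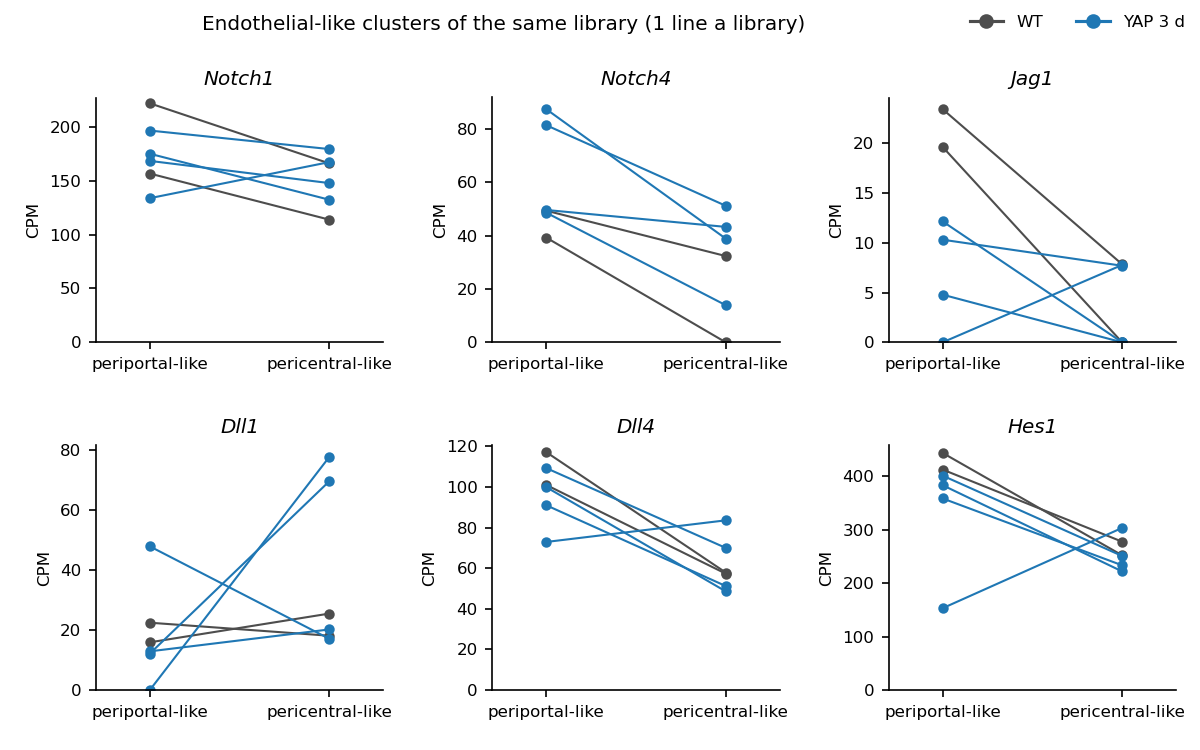
CPM of 6 genes in the periportal-like and pericentral-like endothelial clusters of the same library, 1 line a library, for WT (2 libraries) and YAP3d (4 libraries). Lines for Notch4 fall from left to right in 6 of 6 libraries and those for Dll4 and Hes1 in 5 of 6, while Dll1 rises in 4 of 6.

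Outside the endothelium 5 classes had enough cells in every group for a test. None of the 10 genes passed the filter in natural-killer-like cells, and in the other 4 classes 12 tests of a gene could be made. Between YAP7d and WT 0 of 12 were called by edgeR, with 5 at an unadjusted p below 0.05 and 1 in DESeq2, while over all genes of these 4 classes 0.485% were called and 11.2% had an unadjusted p below 0.05. Between YAP7d and YAP3d 1 of 12 was called, with 5 at an unadjusted p below 0.05 and 1 in DESeq2, beside 0.682% and 12% of all genes. Between YAP3d and WT 0 were called, with 0 at an unadjusted p below 0.05 (2.69% of all genes) and 0 in DESeq2. Of the 48 other pathway genes edgeR and DESeq2 each called 0 in these 5 classes, with 0 to 3 at an unadjusted p below 0.05 in a class and comparison.

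The called gene was Dtx1 in T-cell-like cells, and it was the only 1 of 4 tested genes there, against 1.8% of the 5930 genes tested (0.388% lower). Dtx1 is known in T cells as a factor of anergy. It was at 72.8 and 108 CPM in WT, at 94.7, 59.8, 105 and 79.0 CPM in YAP3d, and at 28.6, 30.6 and 29.3 CPM in YAP7d. The YAP7d libraries lay close together and below all 6 others. Of all genes 12.1% lay apart in either direction between YAP7d and YAP3d (6.0% with YAP7d lower) and 23.4% between YAP7d and WT (12.7% lower). On the log2 scale Dtx1 differed from YAP3d by -1.44 (SE 0.264, edgeR adjusted p = 0.0137), and against WT -1.61 (SE 0.293, edgeR adjusted p = 0.0567), where edgeR called 0 of the 5930 genes, 542 at an unadjusted p below 0.05, and DESeq2 39.

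In DESeq2 the difference of Dtx1 from WT had an adjusted p of 0.0124. The call against YAP3d was lost without YAP3d replicate 3 (-1.35, edgeR adjusted p = 0.0525), YAP7d replicate 1 (-1.37, edgeR adjusted p = 0.0551) or YAP7d replicate 2 (-1.43, edgeR adjusted p = 0.0519). The call against WT was gained without YAP3d replicate 4 (-1.60, edgeR adjusted p = 0.0213). T-cell-like cells lay in the same main clusters in every group but in other shares. The largest, cluster 2, held 50% of them in WT, 49.5% in YAP3d and 30.2% in YAP7d, and cluster 11 held 26.0, 26.2 and 48.1%.

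Dtx1 was lower in YAP7d inside these clusters as well. In cluster 2 its mean in the 2 WT libraries was 117 ± 51.2 CPM, that of the 4 YAP3d libraries 100.7 ± 34.5 CPM and that of the 3 YAP7d libraries 43.6 ± 5.51 CPM. In cluster 11 the means were 60.6 ± 16.1, 70.7 ± 11.2 and 16.5 ± 11.7 CPM. Cluster 2 alone gave a log2 fold change of -1.27 against YAP3d (edgeR adjusted p = 0.0496) and -1.52 against WT (edgeR adjusted p = 0.0556).

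Summed over the class, T-cell markers gave 3983 to 4525 CPM in WT, 3914 to 4581 CPM in YAP3d and 3551 to 3826 CPM in YAP7d. Cycle genes gave 709 to 739, 279 to 794 and 1635 to 2527 CPM, immediate early genes 5723 to 8148, 6365 to 7608 and 4124 to 4913 CPM, and macrophage markers 61.4 to 211, 55.3 to 142 and 277 to 595 CPM. Their part in the Dtx1 values was not tested. The other tested genes of T-cell-like cells did not pass. Notch1, with 27.2 to 42.1 CPM over the 9 libraries, gave -0.21 between YAP7d and WT (SE 0.275), Notch2 -0.71 (SE 0.453) and Rbpj 0.09 (SE 0.435). Notch1 and Notch2 nevertheless lay lower in YAP7d than in WT without overlap, as did Dtx1, which made 3 of 4 tested genes against 23.4% of all genes (12.7% lower). Against YAP3d only Dtx1 of the 4 lay apart. Between YAP3d and WT all 4 overlapped, and 8.23% of genes did not.

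**Figure D5:**
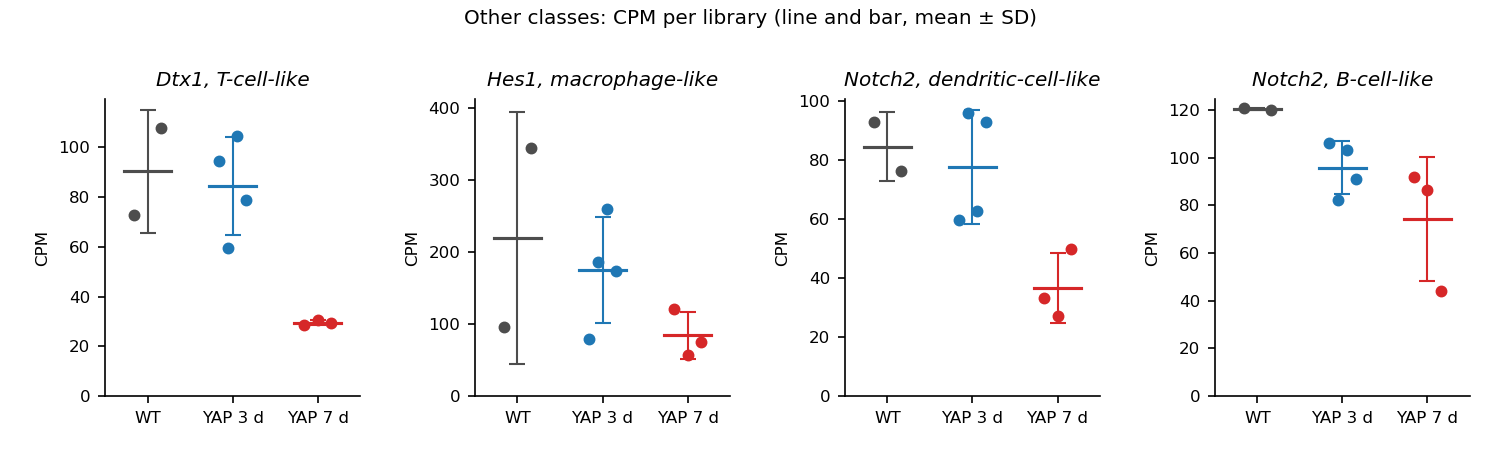
CPM per library of Dtx1 in T-cell-like, Hes1 in macrophage-like, and Notch2 in dendritic-cell-like and B-cell-like cells, with the mean (line) and SD (bar) of WT (n = 2), YAP3d (n = 4) and YAP7d (n = 3). The YAP7d points of Dtx1 sit at 28.6 to 30.6 CPM, below all others, while Hes1 in macrophage-like cells spreads from 79.5 to 344 CPM in the other groups.

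In macrophage-like cells Hes1 varied widely, at 96.3 and 344 CPM in WT, 79.5, 186, 260 and 174 CPM in YAP3d, and 121, 56.5 and 74.9 CPM in YAP7d. The groups overlapped, and WT replicate 2 was the highest library. The log2 fold change between YAP7d and WT was -1.54 (SE 0.441, edgeR adjusted p = 0.0899), -0.27 without WT replicate 2 (edgeR adjusted p = 0.902), and called without YAP3d replicate 2 (-1.56, edgeR adjusted p = 0.0473). The clusters of this class differed between groups: cluster 14, led by Cxcl13, held 50.5% of macrophage-like cells in WT, 35.4% in YAP3d and 0.115% in YAP7d. Inside cluster 16 Hes1 was at 287, 163 and 74.8 CPM over the libraries of WT, YAP3d and YAP7d. Inside cluster 15 it was at 112, 175 and 84.7 CPM. These clusters had 24 and 30 cells in WT, and the values inside them were not tested. Notch2 in all macrophage-like cells was at 40.1 and 39.5 CPM in WT, 53.0, 40.7, 23.0 and 49.3 CPM in YAP3d and 16.6, 30.9 and 22.8 CPM in YAP7d, and differed from WT by -0.79 (SE 0.412, edgeR adjusted p = 0.352). YAP7d lay below WT there without overlap, as 18.0% of genes did (43.6% were apart in either direction), and 1.3% of the 6915 genes were called (0.868% lower). Between YAP7d and YAP3d, where both genes overlapped, 11.3% of genes were apart and 0.289% called (0.217% lower), and between YAP3d and WT 10.4% were apart.

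The UMIs of Hey1 lay in different classes in WT and YAP7d. In WT 10 of its 12 UMIs were endothelial, and in YAP7d 47 of 55 were in macrophage-like cells. Of these 47, 43 lay in cluster 15, led by Marco with the Kupffer cell markers Clec4f, Vsig4, Cd5l and Timd4 among its first genes, as 14, 13 and 16 UMIs in the 3 libraries (9.61, 7.16 and 4.83 CPM). The same cluster had 0 Hey1 UMIs in WT, from 71514 UMIs in all, which allows up to 41.9 CPM, and 1 in YAP3d from 474530. Hey1 did not pass the filter in this class, so the difference was not tested, and the depth of WT could not show it.

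In dendritic-cell-like cells Notch2, which some dendritic cells need, was at 92.9 and 76.3 CPM in WT, 59.5, 96.1, 62.6 and 92.8 CPM in YAP3d, and 33.2, 27.1 and 49.8 CPM in YAP7d. YAP7d lay below both groups, as it did below WT for 9.65% of genes and below YAP3d for 3.94%. Genes apart in either direction made up 27.2% and 8.54% in these comparisons, and 11.7% between YAP3d and WT. Notch2 differed by -1.09 on the log2 scale against WT (SE 0.357, edgeR adjusted p = 0.311) and -0.98 against YAP3d (SE 0.300, edgeR adjusted p = 0.338), in a class where 0% and 0.027% of 3701 genes were called. The class joined 2 clusters in shares that differed between groups, and these values were not tested. Cluster 10 had 5 of 12 dendritic cell markers raised and held 51.4% of the class in WT, 63.1% in YAP3d and 74.7% in YAP7d. Its first genes held Cd209a, Ccl22 and Ccl17, but also Elane, Ctsg, Mpo and Prtn3, granule genes of neutrophil precursors. UMIs of these 4 genes, looked at after the clusters were seen, lay in 5 of its cells in WT, 7 in YAP3d and 24 in YAP7d, out of 321 cells in all. The cluster held more cells in YAP7d than in WT, so these counts do not show a rise. Summed over the libraries of a group, the 4 genes were at 1197, 486 and 541 CPM in WT, YAP3d and YAP7d. All 5 cells of WT lay in replicate 2. All 24 cells of YAP7d lay in replicate 3, with 0 of 42 in replicate 1 and 0 of 12 in replicate 2. Cluster 21, led by Xcr1 with Clec9a and Flt3, had 8 of 12 markers raised. Notch2 in cluster 10 was at 131 and 53.1 CPM in WT, the first from 6 cells, at 91.5, 108, 78.4 and 97.4 CPM in YAP3d, and at 32.2, 17.4 and 37.0 CPM in YAP7d. In cluster 21 it was at 88.8, 76.5 and 69.7 CPM over the libraries of WT, YAP3d and YAP7d, so the levels lay closer together there. Rbpj, highest in this class, gave -0.33 against WT (SE 0.478, edgeR adjusted p = 0.945) and overlapped between groups. In this class 3 genes of the 10 were tested, and all 3 had a log2 fold change below 0 against WT and against YAP3d. Of these, 2 had an unadjusted edgeR p below 0.05 in each comparison, beside 300 and 335 of the 3701 genes, and 0 were called. In B-cell-like cells Notch2 was at 121 and 120 CPM in WT, 106, 82.1, 103 and 91.2 CPM in YAP3d, and 92.0, 86.5 and 44.2 CPM in YAP7d, or -0.79 against WT on the log2 scale (edgeR adjusted p = 0.862), with 0.0448% of 2231 genes called. Both induced groups lay below WT there without overlap, as for 9.37% of genes in YAP7d and 3.81% in YAP3d (16.9% and 8.02% apart in either direction). They overlapped each other, while 6.68% of genes were apart.

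When all cells of a library were summed, as a bulk measurement would, 6 of 10 genes were lower in YAP7d than in WT, against 18.1% of 12071 genes tested (10.9% lower). In such sums fewer cells of a type and less RNA per cell cannot be told apart, and endothelial-like cells were rarer in YAP7d. Dll4 showed the largest difference of the 10, at 31.8 and 29.9 CPM in WT, 17.1, 6.28, 20.5 and 22.9 CPM in YAP3d, and 2.28, 2.16 and 1.48 CPM in YAP7d. YAP7d lay below both groups without overlap, as it did below WT for 34.6% of genes and below YAP3d for 18.5% (54.2% and 27.3% apart in either direction), and the log2 fold change against WT was -3.84 (SE 0.459, edgeR adjusted p = 0.00431), beside -1.17 in endothelial-like cells alone. Dtx1 was at 23.0 and 30.7 CPM in WT, 34.9, 12.6, 38.7 and 27.1 CPM in YAP3d, and 5.08, 3.12 and 2.75 CPM in YAP7d, and the difference from WT was -2.76 (SE 0.416, edgeR adjusted p = 0.00449). Both stayed called against WT and against YAP3d in 17 of 17 alternatives.

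Jag1 gave -2.53 in these sums (edgeR adjusted p = 0.0139, and 0.166 without WT replicate 2), and Dll1 gave -2.26 (edgeR adjusted p = 0.0286). The call of Dll1 was lost without WT replicate 1 (-2.21), WT replicate 2 (-2.32), YAP7d replicate 1 (-1.88) or YAP7d replicate 3 (-2.06). Leaving out each library moved its difference from WT between -2.87 and -1.88. Notch1 gave -1.80 (edgeR adjusted p = 0.00995, and 0.0731 without WT replicate 1) and Hes1 -1.11 (edgeR adjusted p = 0.00869, and 0.0782 without WT replicate 2). Notch2 and Rbpj, spread over many classes, gave -0.07 and -0.12. Notch4 gave -1.73 (edgeR adjusted p = 0.0787), and Hey1 1.03 (edgeR adjusted p = 0.387).

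Without WT replicate 2 only 3 of the 6 calls against WT were left. Against YAP3d 5 of the 10 were lower in all cells together, beside 16.5% of genes (9.83% lower): Dll4 by -3.00, Dtx1 by -2.80, Dll1 by -2.19, Notch1 by -1.28 and Hes1 by -0.71 on the log2 scale. The last 3 lost their call in 5 or 6 of 17 alternatives, and without YAP3d replicate 3, or without YAP7d replicate 3, only 2 calls were left. Without YAP3d replicate 4, YAP7d replicate 1 or YAP7d replicate 2 there were 3. Between YAP3d and WT 0 of 10 were called, with 1 at an unadjusted p below 0.05 (Jag1, -1.17) and 0 in DESeq2, with 12.6% of genes apart, while edgeR called 0 of all genes, 358 at an unadjusted p below 0.05, and DESeq2 16. Of 36 other pathway genes tested 1 was called against WT, beside 18.1% of all genes, and 2 against YAP3d, beside 16.5%, which is no result about the list. Numb, an inhibitor of Notch, was lower against WT (-1.77, edgeR adjusted p = 0.0183) and YAP3d (-1.41, edgeR adjusted p = 0.0281), and Aph1c, a gamma-secretase subunit, was higher against YAP3d (1.10, edgeR adjusted p = 0.0267). Of 17 alternatives, Numb lost its call against WT in 2, without WT replicate 1 (-1.40, edgeR adjusted p = 0.127) or YAP7d replicate 3 (-1.56, edgeR adjusted p = 0.0526). Against YAP3d Numb lost it in 7, with the replicate block and without any 1 of the YAP7d libraries or of YAP3d replicates 1, 3 and 4 (-1.51 to -1.16, highest edgeR adjusted p = 0.103). Aph1c lost it in 6, with the replicate block and without YAP3d replicates 1, 3 or 4 or YAP7d replicates 2 or 3 (0.76 to 1.18, highest edgeR adjusted p = 0.0925).

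For the 6 genes tested in endothelial-like cells, the genes with the most similar pattern were sought over 76 sums of a library and class by Pearson's r of log2(CPM + 5), among 8266 genes with a mean of at least 10 CPM. The sums share libraries and depth, so r is a description. Dll4 was most like Tek, Adgrl4 and Tpbgl (r = 0.92 each), and Dll1 like Tmem47 (0.93), Tspan18 and C1qtnf1 (0.92 each). Notch4 was closest to Plet1os and Wnt2 (0.86 each) and Arhgef15 (0.85). The genes found in several classes had lower values: Tmem9b (0.77), Pde2a and Snrk (0.73 each) for Notch1, Camk1, Lima1 (0.73 each) and Pros1 (0.70) for Hes1, and Fnbp1 (0.70), Taok3 and Pvr (0.68 each) for Rbpj.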

How the data were processed

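Cells of 9 mouse livers, depleted of hepatocytes, were profiled by droplet 3′ single-cell RNA-seq. The authors deposited counts of UMIs per gene and cell, made with Cell Ranger on mm10 (Seurat 2 is also named in the submitters' processing notes). The members and gene lists were chosen with earlier results of these data known. Cells with at least 200 genes were clustered with scanpy 1.11.5 and leidenalg 0.10.2 (2419 of 2500 variable genes, without the pathway genes, 30 components, 15 neighbours, resolution 1, 25 clusters), and clusters were named from fixed markers (163 of 170 in the table). The 64 doublets called (0.751%) were kept. UMIs were summed per library and class with at least 10 cells. edgeR 4.0.16 (TMM, filterByExpr, quasi-likelihood test, all 3 groups in a fit) gave Benjamini-Hochberg adjusted p-values over all genes tested, with a threshold of 0.05, and was tested on simulated data. DESeq2 1.42.0 was run as an alternative. All 10 genes, pathway genes with an adjusted p below 0.05, and Yap1 were named. Intervals are 1.96 SE either side, limits for 0 counts are 3 counts per group, covering counting error only. Each library is a mouse.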

Additional observations from a re-analysis of the deposited data

How the results depend on the processing

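Alternatives changed normalization, the filter on low counts, the tool, the cells kept, the clustering, the groups in the fit and the libraries. Total-count scaling, the sets of cycling and non-cycling cells, the set without the cluster of least RNA and cluster 2 alone were chosen after seeing the data. Leaving out all cycling cells at the planned minimum of 10 cells a library was not run, since YAP7d kept 7, 6 and 9 cells. Of the members called in endothelial-like cells between YAP7d and WT, only cycling cells gave 1 against 3, and leaving out each library gave 2 to 3. Between YAP7d and YAP3d, only cycling cells gave 1, non-cycling cells (at least 5 a library) gave 1, and leaving out each library gave 1 to 3. In other classes, the count between YAP7d and WT rose from 0 to 3 without the filter (Dtx1 in T-cell-like cells, Hes1 in macrophage-like cells with -1.37, and Hes1 in dendritic-cell-like cells) and to 1 with DESeq2, the replicate block, only the 2 groups compared, or resolution 0.5, with 0 to 1 leaving out each library. Between YAP7d and YAP3d it was 2 without the filter and 0 to 1 leaving out each library. In all cells together, leaving out each library gave 3 to 7 between YAP7d and WT and 2 to 6 between YAP7d and YAP3d, and the replicate block gave 2 in the latter.

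Further calls were lost beside those given in the report. In endothelial-like cells the replicate block ended those of Dll4 against WT and YAP3d (-0.95 and -0.94) and of Psen2 against YAP3d (-0.90). Against YAP3d, only cycling and only non-cycling cells ended those of Notch1 (-0.84 and -1.28) and Dll4 (-0.95 and -0.73). Mfng against WT, beside the libraries named, lost its call with total-count scaling (1.13), only the 2 groups compared (1.16), without the cluster of least RNA (1.19), with only cycling cells (0.73) and with non-cycling cells (1.23). In all cells together the replicate block ended the calls of Dll1 against WT and YAP3d (-2.24 and -2.35) and of Notch1 (-1.06), Hes1 (-0.72), Numb (-1.32) and Aph1c (1.11) against YAP3d, and that of Hes1 was also lost without the filter (-0.63). Signs turned only in differences without a call. With only cycling cells Notch1 between YAP3d and WT was 0.32. With the replicate block Notch4 between YAP7d and WT was -0.0344, Rbpj 0.0724, and Rbpj between YAP3d and WT 0.60. Between YAP7d and YAP3d, non-cycling cells gave 0.43 for Notch4 and 0.51 for Dll1, and Dll1 was 0.0176 with a minimum of 500 genes and at most 10% mitochondrial counts and 0.0428 without doublets. Leaving out each library gave -0.32 to 0.14 for Notch1 between YAP3d and WT, -0.37 to 0.21 for Notch4 and -0.46 to 0.28 for Dll1 between YAP7d and YAP3d. For Rbpj it gave -0.79 to 0.48 between YAP7d and WT, -0.49 to 0.29 between YAP3d and WT, and -0.70 to 0.57 between YAP7d and YAP3d. Dtx1 in T-cell-like cells between YAP3d and WT ranged from -0.43 to 0.26. The cause was not tested.

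Over all genes in endothelial-like cells, the 1376 called between YAP7d and WT became 975 in DESeq2, 429 of 4034 with only cycling cells, 278 of 4207 with non-cycling cells, 660 without WT replicate 1, 802 without WT replicate 2 and 867 without YAP7d replicate 3. The 1278 between YAP7d and YAP3d became 432, 240 and, without YAP7d replicate 3, 699, and the 0 between YAP3d and WT became 40 without the filter, 16 with the replicate block and 7 without YAP3d replicate 4. In T-cell-like cells 107 between YAP7d and YAP3d ranged from 39 (without YAP3d replicate 3) to 445 (no filter), and 0 between YAP7d and WT rose to at most 232. In macrophage-like cells 90 between YAP7d and WT ranged from 16 to 522 and 20 between YAP7d and YAP3d from 3 to 361. Dendritic-cell-like cells reached 180 and B-cell-like cells 73 without the filter. In all cells together 2184 between YAP7d and WT fell to 509 without WT replicate 1, and 1988 between YAP7d and YAP3d ranged from 860 to 3569 as libraries were left out.

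Replicate numbers do not pair the samples: in endothelial-like cells the deviations of libraries with the same number correlated between -0.17 and 0.13. With the replicate block Dtx1 in T-cell-like cells between YAP7d and WT was -1.79 (edgeR adjusted p = 0.00491). Scaling to total counts moved the median of all genes between YAP7d and WT to -0.08 in endothelial-like cells and to -0.19 in all cells together. Depth limited Hey1, Jag1 and Notch2 in endothelial-like cells, which were not tested. The 23 or 24 cells of 2 YAP7d libraries limit the endothelial comparison.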
